A study of Mus musculus with 5 samples.

Results

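Gamma-delta T lymphocytes were taken from single-cell RNA libraries of mouse kidney as barcodes that carried transcripts of the T cell receptor complex and of the delta constant chain. A member was a kept barcode (200 or more genes and no more than 30% mitochondrial UMIs) with at least 3 UMIs of Cd3e, Cd3d and Cd3g together and at least 2 UMIs of Trdc. It also had 0 UMIs of Cd4, Cd8b1 and Foxp3, at most 1 UMI of Mki67 and Top2a together and at most 2 UMIs of the C1q genes, where a UMI is 1 counted transcript molecule. This gave 235 members of 60043 kept barcodes, or 0.391%. The control library gave 29 members, the AKI libraries 39 (AKI 1) and 44 (AKI 2), and the CKD libraries 39 (CKD 1) and 84 (CKD 2).

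All 5 libraries came from whole kidneys of wild-type C57BL/6 male mice aged 8 to 10 weeks. Aristolochic acid I (AAI), a plant nephrotoxin, was given intraperitoneally at 3 mg/kg every 3 days until week 2, when the AKI libraries were made, and was then withheld until week 4, when the CKD libraries were made. The study calls the control a baseline, while its methods state that control mice were given vehicle on the AAI schedule. When the control library was made is therefore not settled. The control library stands alone, so that values for the control have no replicate. The labels did not say whether libraries of a group came from separate animals, and p-values over libraries therefore measure the spread between libraries.

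Gamma-delta T cells carry a T cell receptor of a gamma and a delta chain in place of the alpha and beta chains of CD4 and CD8 T cells, and most recognize ligands without classical antigen presentation. Some of them make interferon gamma and carry cytotoxic and natural killer receptor genes, a set called the type-1 program. In epithelial organs they are known as early producers of cytokines that recruit neutrophils and act on the epithelium.

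The members were chosen by their measured UMIs of these genes, whose values are given as a description only. Trdc stood at 1387, 931, 1166, 1042 and 1318 CPM (UMIs of a gene per 1000000 UMIs summed over a library's members) in the control, AKI 1, AKI 2, CKD 1 and CKD 2. At the edge of the rule, 50 members had exactly 2 UMIs of Trdc and 68 barcodes just outside it had 1. On the CD3 count, 12 members had exactly 3 UMIs and 9 barcodes just outside had 2. Tcrg-C1, a gamma constant chain that the rule did not use, was at 52.2 to 138 CPM over libraries in the members with 2 Trdc UMIs and at 0 to 283 CPM in the barcodes with 1.

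Libraries held 90028670 to 121316769 UMIs, and the members of a library together held 103828 to 458188. The median member had 3408, 4730, 4307, 3771 and 4731.5 UMIs in the 5 libraries in the order above. Most members lay close to that depth, but 1 barcode of 37183 UMIs made up 16.3% of the AKI 1 sum, 1 of 33155 UMIs made up 16.4% of the CKD 1 sum and 1 of 25543 UMIs made up 5.57% of the CKD 2 sum. These 3 members lay above the 95th percentile of CD3-positive barcodes of their library. The counts of genes called between the phases and in the interaction of phase and class are given with and without such barcodes. Most values of single genes are given with them only. The control kept 102 barcodes whose sequence also occurred in another library with over 20 times the UMIs, and no member was among them. A single barcode sequence was a member in both AKI 1 and CKD 2.

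Gamma-delta cells made up 2.51% of the CD3-positive barcodes of the control (29 of 1157, exact binomial 95% interval 1.68 to 3.58%). AKI 1 gave a share of 0.602% (0.429 to 0.822%) and AKI 2 of 0.713% (0.518 to 0.956%). CKD 1 gave 0.556% (0.396 to 0.760%) and CKD 2 1.32% (1.05 to 1.63%). The control value lay above the other 4, and the CD3-positive total behind it was 1157 against 6173 to 7010. As a share of all kept barcodes the order differed, at 0.316% for the control, 0.348% and 0.405% for AKI 1 and AKI 2, and 0.202% and 0.884% for CKD 1 and CKD 2. The CKD mean of the CD3-positive share exceeded the AKI mean by 0.281 percentage points, less than the pooled SD of 0.386 (2 libraries per group), and without CKD 2 the difference turned to -0.101. For the share of kept barcodes the difference was 0.166 points with a pooled SD of 0.342, and -0.175 without CKD 2. With 2 libraries against 2, an exact two-sided permutation test cannot give a p under 0.333, and none was run on the shares. In a further setting barcodes under 2000 UMIs were dropped, the rest were thinned to 2000 UMIs and the rule was applied again. The shares of CD3-positive barcodes were then 2.16%, 0.234%, 0.526%, 0.515% and 1.06%.

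**Figure D1:**
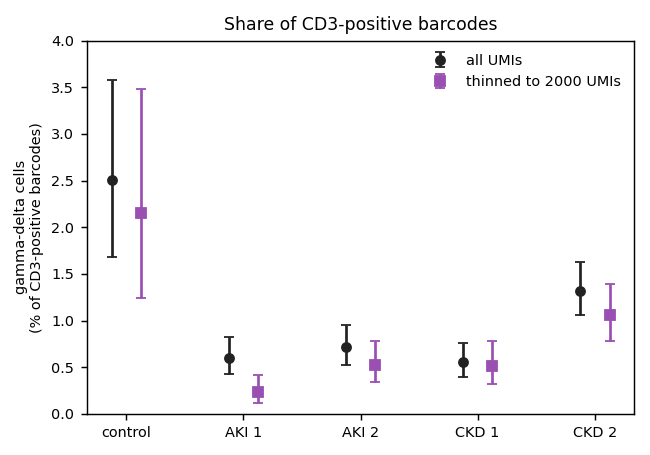
Gamma-delta cells as a percent of CD3-positive barcodes in each of the 5 libraries, at full depth (circles) and thinned to 2000 UMIs (squares), with exact binomial 95% intervals as bars. At full depth the control lay at 2.51% and the 4 AKI and CKD libraries between 0.556% and 1.32%.

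To place the members among lymphocytes, their summed UMIs were compared with CD8 cells (6176 barcodes, at least 2 UMIs of Cd8b1) and CD4 cells (1258 barcodes, at least 2 UMIs of Cd4) under the same gates, but with 0 UMIs of Trdc, in each of the 5 libraries. The comparison with NK cells (191 barcodes without CD3 UMIs and with at least 2 UMIs of Ncr1 and Klrb1c) used the 3 libraries with at least 20 NK cells, the control, CKD 1 and CKD 2. Genes used in the rules were left out of the tests. Against CD8 cells 478 of 7330 genes passed the test, 6.52% of those tested, with 294 higher in gamma-delta cells (4.01%) and 184 lower (2.51%). Against CD4 cells 538 of 4928 genes passed, or 10.9%, of which 5.91% of genes tested were higher and 5.01% lower. Against NK cells 134 of 3386 genes passed, or 3.96%, with 1.80% higher and 2.16% lower. The median log2 difference over all genes tested was -0.01, -0.02 and 0.02 in the 3 comparisons.

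The label was checked against receptor genes other than those counted in the rules. Because members were chosen for Trdc and CD8 and CD4 cells for its absence, transcripts of the same chain such as Trdv4 are not independent of the choice, and values for receptor genes are given as a check of the label. Gamma constant chain transcripts were higher in the members than in CD8 and CD4 cells. Of 28 listed gamma-delta genes 19 were in the data, and 6, 5 and 5 were tested against CD8, CD4 and NK cells. All of those tested were higher, with median log2 differences of 3.76, 6.55 and 7.27, and Trdv4 was among them each time. DESeq2 called 5, 5 and 3 of them. The 6 against CD8 cells included Sox13, which is not a receptor gene. A gene near 0 in the other class passes the count filter only through the members, so that it could only come out higher. Tcrg-C1 (chr13:19398273-19401194, GRCm39) stood at 222, 158, 197, 184 and 207 CPM in the control, AKI 1, AKI 2, CKD 1 and CKD 2, against 1.22 to 9.25 CPM in CD8 cells. No library of the members overlapped the CD8 range, and the log2 difference was 5.25 (SE 0.31, adjusted p = 9.3e-09). Tcrg-C4, another gamma constant chain (chr13:19528728-19536926), was at 144, 57.1, 93.4, 39.7 and 69.8 CPM against 1.49 to 5.39 CPM, a log2 difference of 4.60 (SE 0.40). Tcrg-C2 differed by 1.78 (SE 0.38, adjusted p = 0.0064), a call lost without CKD 2. Because 35.8% of the 31-base words of the Tcrg-C1 transcript also occur in Tcrg-C2 and 29.5% in Tcrg-C3, while none occurs in Tcrg-C4, the division of UMIs among the first 3 is uncertain.

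Trdv4, a variable segment of the delta chain (chr14:54312362-54312972), was at 67.4, 114, 44.3, 164 and 137 CPM. All 5 CD8 sums were at 0 for Trdv4, which put the members at least 1314-fold higher (138 UMIs against a floor of 3 over the CD8 group). Trgv2, a gamma variable segment, was at 96.3, 8.78, 24.6, 44.6 and 50.2 CPM. Its call against CD8 cells (2.27) was lost without CKD 1, without CKD 2, with DESeq2 and with at least 3 UMIs of Trdc. Other gamma segments were sparse, with 9 UMIs of Tcrg-V1, 8 of Tcrg-V4, 10 of Tcrg-V6, 2 of Tcrg-V5 and 2 of Tcrg-V7 over all members, so that a gamma chain could not be assigned to most cells.

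Trac, the alpha constant chain (chr14:54457978-54461663), was at 86.7, 92.2, 221, 99.2 and 91.7 CPM in the members against 381 to 594 CPM in CD8 cells, a log2 difference of -2.20 (SE 0.19, adjusted p = 6.5e-07). Trac was thus lower but not at 0, and 68 members had at least 1 UMI of it: 17.2%, 17.9%, 36.4%, 30.8% and 33.3% of members in library order. Trbc1 and Trbc2, the beta constant chains, were lower than in CD8 cells by -0.90 (SE 0.16) and -0.83 (SE 0.14) on the log2 scale. In AKI 1 the members with Trac had 27.5 CPM of Tcrg-C1 and those without it 219, and in CKD 1 the values were 65.2 and 256. In the control, AKI 2 and CKD 2 they were 221 against 222, 257 against 162 and 210 against 206. The part of alpha-beta T cells or of doublets in the members with Trac was not tested.

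Il17a was higher in the members than in CD8 cells. The gene, which codes for the cytokine interleukin 17A, was at 77.1 CPM in the control (95% counting interval 33.3 to 152). AKI 1 stood at 1466 CPM (1313 to 1632) and AKI 2 at 1185 (1040 to 1345), while CKD 1 stood at 645 (539 to 766) and CKD 2 at 1277 (1175 to 1385). The control lay below the other 4 libraries, and the AKI and CKD values overlapped. The intervals cover counting error alone. All CD8 cells together held 7 UMIs of Il17a, against 1298 in the members, a ratio of CPM of 5298 (2564 to 13204). The fitted log2 difference was 12.22 (SE 0.33, adjusted p = 1.3e-13). Il17a passed the count filter only through the members, so that it could only come out higher.

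Il17a was concentrated in part of the members. At least 1 UMI was found in 4 of 29 members of the control (13.8%, exact interval 3.89 to 31.7%). AKI 1 had 20 of 39 such members (51.3%, 34.8 to 67.6%), AKI 2 had 17 of 44 (38.6%, 24.4 to 54.5%), CKD 1 had 15 of 39 (38.5%, 23.4 to 55.4%) and CKD 2 had 37 of 84 (44.0%, 33.2 to 55.3%). In CD8 cells the share was 0 to 0.181%, at median depths of 3852 to 6046 UMIs. The cell with most Il17a held 4, 115, 110, 36 and 50 UMIs in the 5 libraries. Without that cell the sums were at 40.1, 984, 659, 475 and 1178 CPM, so that the control stayed lowest. The members, 0.391% of kept barcodes, held 9.88%, 55.5%, 52.1%, 35.8% and 73.1% of all Il17a UMIs among kept barcodes. CD3-positive barcodes without Trdc, Cd4 and Cd8b1 held a further 52, 114, 19, 93 and 54 UMIs of Il17a. Barcodes with 1 Trdc UMI that otherwise met the rule held 0, 37, 78, 4 and 5. The remaining CD3-positive barcodes outside the CD4 and CD8 classes held 15, 107, 103, 28 and 132. Kept barcodes under the CD3 threshold held 4, 6, 21, 105 and 22. For Ifng, which codes for interferon gamma, the members held 0.181% to 0.833% of all UMIs.

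**Figure D2:**
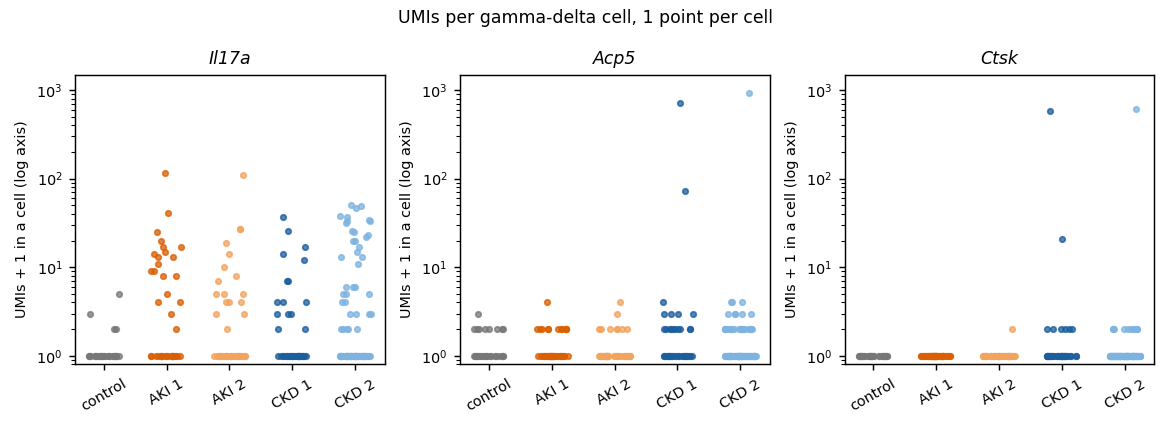
UMIs of Il17a, Acp5 and Ctsk in each gamma-delta cell, 1 point per cell, plotted as UMIs + 1 on a log axis by library. Il17a reached 115 UMIs in a cell of AKI 1 and 4 in the control, and the 2 highest Acp5 points, 722 in CKD 1 and 937 in CKD 2, belonged to the deepest cells of those libraries.

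Other genes with little signal in CD8 cells stood at more even levels. Cd163l1, Blk, Il23r and 5830411N06Rik also passed the count filter only through the members and could only come out higher than in CD8 cells. Cd163l1, a scavenger receptor gene (chr7:139798180-139811058), was at 212, 219, 202, 263 and 225 CPM in the 5 libraries against at most 0.213 CPM in CD8 cells. The members of the control lay within the range of the other 4 libraries. The log2 difference was 10.52 (SE 0.30), and UMIs of Cd163l1 were seen in 9 of 29, 15 of 39, 15 of 44, 19 of 39 and 36 of 84 members. Blk, a Src-family kinase, was at 106, 101, 83.6, 54.6 and 87.3 CPM, higher than in CD8 cells by 7.67 (SE 0.48) on the log2 scale. Il23r, the interleukin 23 receptor, was at 19.3, 26.3, 24.6, 24.8 and 34.9 CPM, which rests on 34 UMIs against 1 in CD8 cells, a ratio of 971 (163 to 39484). 5830411N06Rik, which neighbours Cd163l1 (chr7:139827197-139880649), was at 28.9, 65.8, 78.7, 49.6 and 19.6 CPM and higher by 7.94 (SE 0.83). Il1r1, the receptor for interleukin 1, was higher by 5.33 (SE 0.59). Sox13 (26 UMIs in all members), Ccr6 (12), Il17f (10) and Il22 (6) were thin.

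Further receptor and transcription factor genes were also higher in the members. Ramp1, the co-receptor for the neuropeptide CGRP, was at 183, 312, 246, 238 and 229 CPM against 4.63 to 10.8 in CD8 cells, with no overlap (log2 difference 5.38, SE 0.22, adjusted p = 4.3e-11). Rora, a nuclear receptor, was at 462, 637, 738, 625 and 626 CPM against 78.6 to 224 (1.81, SE 0.15). Il2ra, the alpha chain of the interleukin 2 receptor, was higher by 4.23 (SE 0.43), and Il7r, the interleukin 7 receptor, by 1.58 (SE 0.16). Maf, a transcription factor, was higher by 2.34 (SE 0.17), Zbtb16, the gene for the innate lymphocyte factor PLZF, by 3.88 (SE 0.55) and the ion channel gene Tmem176a by 2.23 (SE 0.20). Ltb4r1, the leukotriene B4 receptor, was higher by 5.11 (SE 0.72) and Ramp3 by 2.30 (SE 0.18). Genes outside the lists with the largest rises included Klra1 (6.25), Abi3bp (5.57), Mmp25 (5.47) and Pxdc1 (5.44).

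Genes of the type-1 and cytotoxic program were lower, higher or not called against CD8 cells. On the type-1 panel 3 of 12 genes were higher (Klrb1c, Ncr1 and Klrk1), 3 were lower (Fasl, Eomes and Ifng) and 6 did not pass the test. The call for Klrk1 was lost without AKI 2, without CKD 2 and with at least 3 UMIs of Trdc. The median log2 difference of the panel was -0.19, which was 0.19 among members without Trac. On the list beyond that panel 2 of 23 were higher (Txk and Il2rb), 11 were lower and 10 did not pass the test, with a median of -0.73. Ccl5, a chemokine of effector lymphocytes, was at 3949, 2919, 3699, 3060 and 3754 CPM in the members and at 7375 to 10042 in CD8 cells, and the log2 difference was -1.38 (SE 0.11, adjusted p = 3.3e-07). Nkg7, a granule protein of cytotoxic cells, was at 722, 206, 487, 188 and 465 CPM against 892 to 1433 (-1.66, SE 0.24). Ifng was at 279, 123, 320, 179 and 179 CPM against 355 to 529 (-1.06, SE 0.18, adjusted p = 0.0013). All 3 genes lay below the whole CD8 range in each library.

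Granzyme genes were lower in the members as well. Gzmk was lower than in CD8 cells by -3.78 (SE 0.35), on 7 UMIs in the members. Gzmb was at 57.8, 4.39, 19.7, 14.9 and 26.2 CPM against 168 to 244 (-3.17, SE 0.29). Gzmm was at 0 in every library of the members, at least 3.94-fold lower than in CD8 cells, a call lost without CKD 2. Gzma was at 318, 0, 0, 0 and 50.2 CPM and overlapped CD8 cells (122 to 277 CPM). Its difference of -2.22 (SE 0.63, adjusted p = 0.043) was lost without AKI 2, CKD 1 or CKD 2 and with at least 3 UMIs of Trdc, and single cells held 23 of the 33 UMIs in the control and 20 of the 23 in CKD 2. Dapl1 was at 3 UMIs in the members against 1100 in CD8 cells, 12.8-fold lower (4.38 to 62.3).

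Among 18 cytokine and growth factor genes tested against CD8 cells, 3 were higher (Il17a, Areg and Furin) and 3 lower (Ifng, Ccl5 and Ccl4), with a median of 0.17. Areg, which codes for the epithelial growth factor amphiregulin (chr5:91287451-91296291), was at 38.5, 167, 63.9, 19.8 and 39.3 CPM against 1.08 to 9.67 in CD8 cells (log2 difference 3.45, SE 0.38, adjusted p = 1.2e-05). AKI 1 was the highest of the members' libraries for Areg, and 21 of its 38 UMIs were in 1 cell. Other T cell classes overlapped the members for Areg. CD4 cells were at 0, 42.9, 44.9, 62.4 and 39.4 CPM in library order. CD3-positive barcodes without Trdc, Cd4 and Cd8b1 were at 22.1, 52.6, 51.9, 31.9 and 35.7 CPM. Areg was not among the genes called higher than in CD4 cells. Furin, a protease that processes precursors such as that of transforming growth factor beta, was at 135, 180, 113, 218 and 157 CPM against 37.7 to 46.9 in CD8 cells (1.90, SE 0.16). Several abundant cytokine genes did not pass the test against CD8 cells. Xcl1 was at 684, 509, 1274, 263 and 729 CPM (log2 difference -0.11, SE 0.23), Ltb at 732, 632, 851, 580 and 550 (0.42, SE 0.17) and Tgfb1 at 48.2, 158, 202, 129 and 122 (0.31, SE 0.18).

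**Figure D3:**
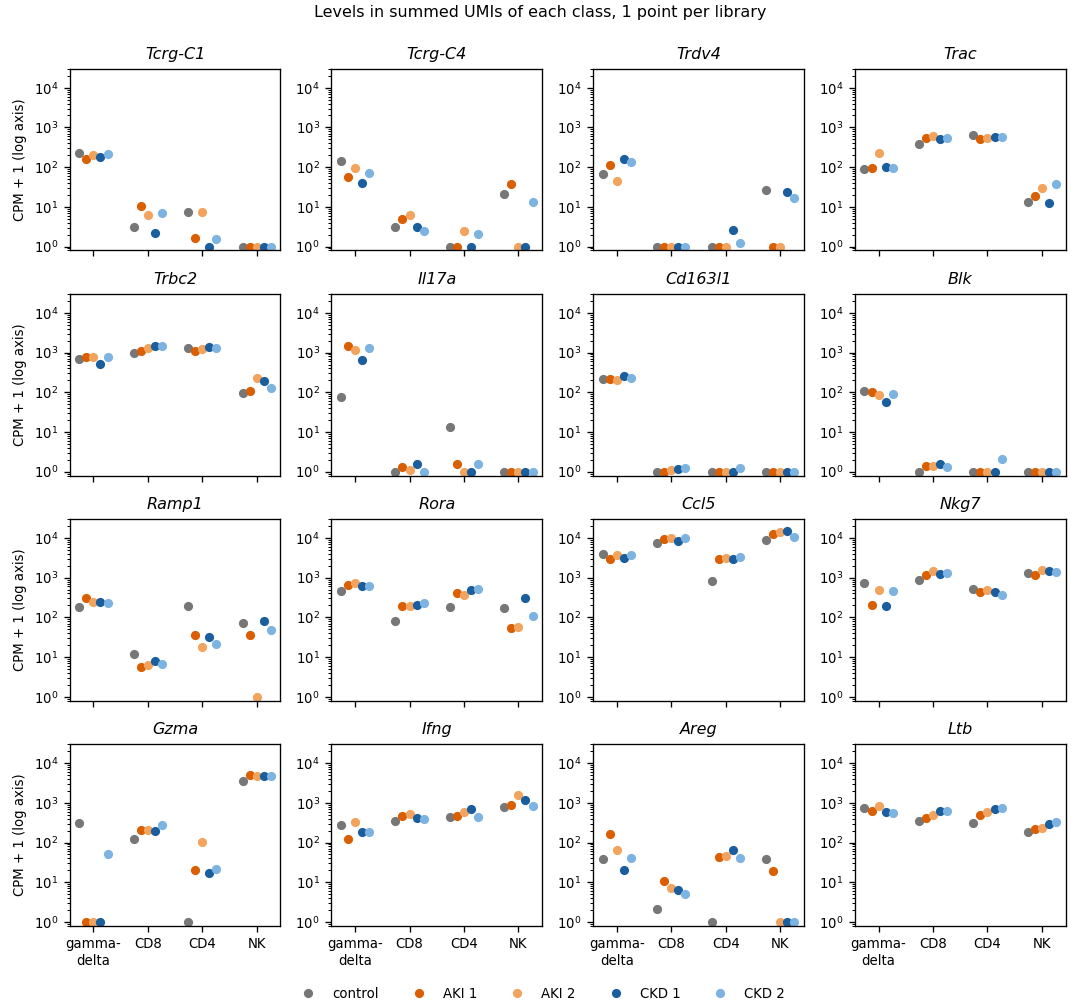
Levels of 16 genes in the summed UMIs of gamma-delta, CD8, CD4 and NK cells, 1 point per library colored by library, as CPM + 1 on a log axis. Tcrg-C1, Il17a, Cd163l1 and Blk stood above the other 3 classes in the gamma-delta sums, Ccl5 stood below CD8 cells, and Ltb overlapped CD8 cells.

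Against CD4 cells Il17a and natural killer receptor genes were higher and several helper genes were lower. Il17a was at 1298 UMIs in the members against 5 in CD4 cells (log2 difference 10.73, SE 0.46). Here too it passed the count filter only through the members and could only come out higher. Maf, at 254 to 370 CPM in CD4 cells, and the costimulatory receptor Icos did not pass the test, with differences of -0.09 (SE 0.16) and -0.17 (SE 0.18). On the type-1 panel 4 of 9 genes were higher, among them the natural killer receptor genes Klrd1 (4.12, SE 0.36) and Klrk1 (4.55, SE 0.28). Ifng was lower than in CD4 cells by -1.21 (SE 0.19, adjusted p = 0.00052). Of 18 cytokine genes 2 were higher and 7 lower, namely Il2, Ifng, Ccl1, Tnfsf11, Tnf, Lta and Cd40lg, of which Tnf lost its call in 8 of the alternatives, each left-out library other than CKD 2 included. Ccl1 was at 0 UMIs in the members against 1626, at least 78.8-fold lower. Tnfrsf4 and Tnfsf8, a receptor and a ligand of helper T cell costimulation, were lower by -4.66 (SE 0.28) and -3.70 (SE 0.22). Of 16 interferon-stimulated genes 7 were lower and none was higher, with a median of -0.79.

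Against NK cells the members were lower in cytotoxic genes. Of the type-1 panel 9 of 10 genes tested were lower and none was higher, with a median log2 difference of -2.07. NK cells were chosen by Ncr1 and Klrb1c, which belong to this panel and were left out, so its other genes are not independent. Gzma was at 318, 0 and 50.2 CPM in the members of the control, CKD 1 and CKD 2 and at 3563, 4756 and 4613 CPM in NK cells (-5.73, SE 0.81, adjusted p = 0.0039). Prf1, which codes for perforin, was lower by -5.25 (SE 0.49), the transcription factor gene Irf8 by -4.99 (SE 0.38) and Xcl1 by -2.21 (SE 0.41). Il17a was at 723 UMIs against 0 in NK cells, at least 232-fold higher, and Cd163l1 at 178 against 0, at least 57.2-fold higher. Both genes passed the count filter only through the members and could only come out higher. Icos was higher by 3.59 (SE 0.37) and Cxcr6, a chemokine receptor of tissue lymphocytes, by 2.74 (SE 0.35).

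Of 16 immediate-early genes 10 were higher than in CD8 cells and none lower (median 0.52), with Jun at 0.80 (SE 0.12) and Junb at 0.68 (SE 0.11). Against CD4 cells 9 of 16 were higher, and against NK cells 0 of 16 passed in edgeR or in DESeq2, with 1 at an unadjusted p under 0.05. These genes also respond to tissue dissociation, whose part was not tested. Of 16 oxidative phosphorylation genes 0 passed against CD8, CD4 or NK cells in edgeR or in DESeq2, with 0, 3 and 0 at an unadjusted p under 0.05, and of 14 glycolysis genes 1 was higher (Hk2) and 1 lower (Gapdh) against CD8 cells. Of 18 residency and egress genes 1 was higher than in CD8 cells (Rgs2, 0.97, SE 0.12) and 2 were lower (Ccr7 and Itga1). Of 20 activation and checkpoint genes 3 were higher and 6 lower, among them Cd5 (-2.11, SE 0.25), Cd6 (-2.22, SE 0.25) and Cd28 (-1.59, SE 0.22), receptors that tune signals through the T cell receptor.

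The phases were compared over 2 AKI and 2 CKD sums of the members. In summed UMIs, fewer cells of a kind and less RNA per cell cannot be told apart. Type-1, receptor and cytokine genes were not called between the AKI and CKD phases. Il17a differed by -0.45 (SE 0.37, adjusted p = 0.99), Cd163l1 by 0.20 (SE 0.30) and Areg by -1.84 (SE 0.54, adjusted p = 0.74). Of the type-1 panel 0 of 5 genes tested passed, of the type-1 list beyond it 0 of 9, of the cytokine genes 0 of 11 and of the gamma-delta receptor genes 0 of 4. DESeq2 called none of these genes either, and at an unadjusted p under 0.05 stood 1 cytokine gene and 0 of the others. Over all genes 3 of 2609 passed in edgeR (0.115%), all higher in CKD, 88 were at an unadjusted p under 0.05, and DESeq2 called 9. The CKD values did not overlap the AKI values for 800 genes (30.7%). With 2 libraries against 2, random order alone would separate the groups for a share of 0.333 of genes. This count therefore does not show a difference between the phases.

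The 3 called genes were Acp5, Ctsk and Mmp9, known for osteoclasts and tissue macrophages. Acp5 was at 96.3 CPM in the control, 61.5 and 59.0 in AKI and 4042 and 2126 in CKD (log2 difference 5.65, SE 0.45, adjusted p = 0.00057). Mmp9 was at 19.3 CPM, then 0 and 0, then 1835 and 834. Most of these UMIs were in 1 cell of each CKD library. In CKD 1 the cell of 33155 UMIs held 722 of 815 Acp5, 580 of 606 Ctsk and 310 of 370 Mmp9 UMIs, together with 52 UMIs of the macrophage gene Cd68. A second member of CKD 1, of 8678 UMIs, held 72 Acp5, 20 Ctsk, 58 Mmp9 and 3 Cd68 UMIs and was not among the deepest barcodes. In CKD 2 the cell of 25543 UMIs held 937 of 974, 611 of 621 and 372 of 382, together with 42 UMIs of Cd68. Without the deepest barcodes 0 genes were called by edgeR, with 89 at an unadjusted p under 0.05, and 0 were called among members without Trac, with 44. DESeq2 was not run on these sums. In both settings Ctsk and Mmp9 no longer passed the filter and were not tested, while the difference for Acp5 was 2.13 without the deepest barcodes and 2.61 without Trac, neither of which passed the test. The macrophage list summed to 57.8 CPM in the control, 294 and 723 in AKI and 942 and 513 in CKD, against 91.5 to 588 in CD8 cells. The proximal tubule list summed to 1974, 1708, 1161, 6577 and 648 CPM in the members and 624 to 2708 in CD8 cells, so that CKD 1 stood above all CD8 sums.

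Whether the change from AKI to CKD differed from that of CD8 cells was tested as an interaction of phase and class. It was called for 64 of 11415 genes (0.561%), with DESeq2 calling 5, and for 25 without the deepest barcodes. Ly6c2, a surface antigen of effector and memory T cells, was at 325 and 192 CPM in AKI and 154 and 312 in CKD in the members, and at 205 and 210 in AKI and 538 and 378 in CKD in CD8 cells, a difference of the 2 changes of -1.23. For Plac8 the members were at 136 and 197, then 94.2 and 116 CPM, and CD8 cells at 190 and 239, then 426 and 421, a difference of -1.65. Both genes thus had higher values in CKD than in AKI among CD8 cells, while the members' values overlapped for Ly6c2 and were lower in CKD for Plac8. Of the 27 genes named by this test, only Acp5 kept its call in all 8 alternatives.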

How the data were processed

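Kidneys were dissociated and single-cell libraries made with the 10x Genomics 3′ v2 kit, per the labels. The deposited matrices hold raw UMI counts, which the authors made with Cell Ranger. The submitters' processing notes name Cell Ranger 7.2.0, STAR and GRCm39, whereas the AKI and CKD file headers name Cell Ranger 5.0.0 and the control gene list names mm10. Gene positions are from GRCm39.

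UMIs were summed per library and class and tested with edgeR 4.0.16 (R 4.3.3, limma 3.58.1; TMM, filterByExpr, quasi-likelihood F test, Benjamini-Hochberg over all genes tested, threshold 0.05), with the library as a block where classes were compared within libraries. DESeq2 1.42.0 was an alternative. Other steps used Python 3.11.15 with numpy 2.4.6, scipy 1.17.1, pandas 2.3.3 and matplotlib 3.10.9. Libraries needed 20 cells of each class. Members and gene lists were chosen with earlier results of these data known. Named genes were the 10 largest rises and 10 largest falls among calls with at least 30 UMIs and groups that did not overlap, plus listed genes with at least 30 UMIs in the members and the 4 most abundant genes of other lists. Listed genes outside this rule (for example Sox13, Il17f, Gzmb, Eomes, Fasl, Cd5, Hk2, Ccr7 and Klf3) were named after their values were seen, as was the tabulation of list counts without the deepest barcodes or Trac-positive members. Doublets and free RNA were not removed. The fits were tested on simulated data with 4-fold changes, of which 60% were recovered for CKD against AKI (2636 genes) and 83% for gamma-delta against CD8 cells (6820 genes). Changed genes that failed the filter counted as not recovered. The simulated counts had a single dispersion for all genes and no deep barcodes, so these percents do not measure power in the data. Alternatives were another scaling, no filter, DESeq2, stricter rules and each library left out. Some planned results are not reported here.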

Additional observations from a re-analysis of the deposited data

Results flagged for a closer look

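For 27 named genes the CKD minus AKI change differed between gamma-delta and CD8 cells by the interaction test in edgeR. Values in parentheses are the difference of the 2 changes on the log2 scale, positive where the members rose more or fell less.

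Genes of lymphocytes and their products were Gzma (9.69), Trgv2 (3.53), Ccl3 (2.03), Ly6c2 (-1.23), Plac8 (-1.65) and the B cell gene Igkc (3.29). Cxcl2 (-1.90) is a chemokine gene. For Gzma the members were at 0 in both AKI libraries, 0 in CKD 1 and 50.2 CPM in CKD 2, where 20 of 23 UMIs were in 1 cell, so that its value depends on the prior count. Igkc turned to -0.51 without CKD 2 and Ccl3 to -0.0450 without CKD 1.

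Genes known for macrophages and osteoclasts were Acp5 (4.38), Mmp9 (9.47), Cd68 (3.57) and Apoe (2.29), and Gpr137b (10.57) is a lysosomal membrane protein gene. The deepest member of CKD 1 and that of CKD 2 held 52 of 55 and 42 of 45 Cd68 UMIs. Without the deepest barcodes the number of interaction calls over all genes fell from 64 to 25.

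Endothelial genes were Flt1 (10.86), Nrp2 (10.39), Plvap (5.25) and Tm4sf1 (4.66). The endothelial and stromal list summed to 35.1 and 29.5 CPM in the members of the AKI libraries and to 223 and 65.5 CPM in CKD.

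Genes of the proximal tubule were Slc27a2 (5.01), Miox (4.24), Gpx3 (1.35), Slc34a1 (1.78) and Spink1 (2.40). A single cell of 15780 UMIs held 63 of the 113 Slc34a1 UMIs in CKD 1, and a cell of 13187 UMIs held 25 of the 36 in CKD 2.

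Other kidney epithelial genes were Car15 (-3.39), Car12 (-3.08), Wfdc2 (-1.91), Defb1 (-1.81), Clu (-1.52) and Atp1b1 (-1.51). Without the deepest barcodes Car12, Defb1 and Clu turned to 0.012, 0.31 and 0.11. The part of free RNA and of doublets in these values was not tested.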

How the results depend on the processing

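Over the named genes 2390 values were recomputed under an alternative. Direction and side of the threshold were kept in 2170, 213 lost the call and 7 reversed. The reversed values were Cd68 against CD8 cells (-0.77 without Trac-positive members and -0.70 without the deepest barcodes) and, in the interaction, Car12 (0.012), Defb1 (0.31) and Clu (0.11) without the deepest barcodes, Ccl3 (-0.0450) without CKD 1 against 3.57 without CKD 2, and Igkc (-0.51) without CKD 2 against 4.29 without CKD 1. Among named calls 59 of 72 against CD8 cells, 56 of 70 against CD4 cells and 31 of 50 against NK cells held in every alternative run for them.

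Counts of called genes moved by over 1.5 times as follows. For CKD against AKI there were 3 calls, and 9 with DESeq2, 104 with no filter, 0 among Trac-negative members, 0 without the deepest barcodes, 11 with all 5 libraries in the fit and 38 to 87 with each library left out. With the replicate number as a block there were 37. All 3 calls were higher in CKD, but the split of higher and lower calls was 61 and 43 with no filter, 36 and 2 without AKI 1, 44 and 41 without AKI 2, 9 and 34 without CKD 1, 70 and 17 without CKD 2 and 27 and 10 with the block. The deviations of same-numbered libraries correlated at r = 0.347 in both of 2 pairs, which are equal by construction, and nothing in the labels pairs the libraries. Against CD8 cells the 478 calls became 746 with no filter and 223 to 869 with each library left out (223 without CKD 2, 869 without the control), and the split of 294 higher and 184 lower became 343 and 403 with no filter and 406 and 463 without the control. Against CD4 cells the 538 became 314 to 581, and the split of 291 higher and 247 lower became 304 and 438 with no filter. Against NK cells the 134 became 79 with DESeq2, 251 with no filter and 78 to 179, and the split of 61 higher and 73 lower became 97 and 82 without the control. The interaction, with 46 higher and 18 lower, gave 5 with DESeq2, 25 without the deepest barcodes and 15 to 98, with a split of 32 and 34 without AKI 2. The causes were not tested.

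With 29 to 84 members per library, genes under about 30 UMIs carry wide counting error. A simulated 4-fold difference was recovered for 28% of changed genes in the interaction (11212 genes).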

Other observations

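The members of the single control library differed from those of the 4 AKI and CKD libraries in several genes, which were picked after their values were seen and were not tested. Cd28, the costimulatory receptor, was at 289 CPM in the control and at 83.4 to 133 CPM in the other 4. Klf3, a transcription factor of resting lymphocytes, was at 173 against 28.4 to 63.9 CPM. Fasl, which codes for a death ligand, was at 86.7 against 9.92 to 24.6 CPM. Tgfb1, which codes for transforming growth factor beta 1, was lower in the control at 48.2 against 122 to 202 CPM. Tmem176a was also lower there, at 164 against 380 to 549 CPM. The control members were fewer (29) and had a higher median share of mitochondrial UMIs, at 7.98% against 3.45% to 5.74%.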
